A study of Mus musculus with 4 samples.

Results

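The genes described here are the transcripts of 2 glucose transporters (Slc2a1 and Slc2a3) and 8 enzymes of glycolysis (Hk2, Pfkp, Aldoa, Gapdh, Pgk1, Eno1, Pkm and Ldha) in cultured mouse pro-T cells. They were picked by symbol, and 10 of the 31053 gene rows carry them; the symbol Aldoa stands on 2 rows, of which ENSMUSG00000030695 was used. All 10 genes had at least 10 unique molecular identifiers (UMIs, counts of single captured transcripts) in every hashtag of both experiments. The cells came from bone marrow progenitors of B6.Bcl2 transgenic mice, aged 8 to 10 weeks for the overexpression cultures, grown on OP9-Dll1 stroma with IL-7 and Flt3-ligand at 10 ng/ml. On day 2 they received either the retrovirus MSCV-Runx1-mCherry or its control MSCV-empty-mCherry, with harvest on day 4 or 6. B6.Cas9;Bcl2 transgenic progenitors received E42 vectors with guides against Runx1 (hNGFR) and Runx3 (mTurquoise), or E42 vectors with guides against luciferase, with harvest on day 5 or 8. All groups thus carry the Bcl2 transgene, and every knockout and guide control also carries Cas9. Sorted cells were lineage-negative, CD45+ and positive for the vector reporters. The 2 experiments each hold 1 droplet mRNA library and 1 hashtag library of 8 pooled replicates, and the labels name both kinds of vector for both experiments. They give a culture of 4 to 5 days for experiment 1 and of 4 to 8 days for experiment 2.

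No source used here ties a hashtag to a vector, guide, control or harvest day. The 8 tags of each experiment are therefore numbered by column, and tag 1 of experiment 1 has nothing to do with tag 1 of experiment 2. Values are given per tag, with exact 95% Poisson intervals that cover counting error only; no comparison of Runx conditions was made and no p-value is given.

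Glycolysis breaks glucose down to pyruvate in the cytosol and yields ATP and building blocks. Cells take glucose up through facilitative transporters, hexokinase traps it by phosphorylation, phosphofructokinase commits it to the pathway, and lactate dehydrogenase turns pyruvate into lactate and restores the NAD+ that the pathway needs. Dividing lymphoid progenitors use glycolysis heavily, and many of its genes are textbook targets of the oxygen-regulated factor HIF and of Myc.

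Of 9967 and 10556 barcodes, 9332 and 10214 had at least 500 genes and under 10% mitochondrial UMIs, and 8797 and 8335 of those had a clear tag. Each tag held 691 to 1291 cells in experiment 1 and 855 to 1312 in experiment 2, with 14502385 to 38067298 and 22272716 to 42684236 UMIs per tag. The experiments share 39 barcodes, 28 of them among tagged cells. Kit, which marks the labelled stage, was found in 71.8% and 51.9% of tagged cells, and Ptprc (CD45) in 95.4% and 92.9%. Cd4 stayed at or below 0.270 CPM (UMIs per 1000000) in every tag. Cd8a reached 1.26 CPM in experiment 1 but 42.2 CPM in 1 tag of experiment 2, where a cluster led by Gzmc, Cd8b1 and Trac was found. Runx1, which the retrovirus overexpresses and guides target, ranged from 38.2 to 241 CPM over the tags of experiment 1 and from 33.7 to 121 CPM in experiment 2. Runx3, the other guide target, ranged from 115 to 181 CPM and from 74.7 to 145 CPM. A guide that disrupts the protein need not lower the transcript, and no condition was read from these values.

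The transporters were at low levels. Slc2a1, the transporter for basal glucose uptake in most cells, stood at 12.7, 13.7, 10.5, 10.2, 12.0, 13.4, 17.3 and 16.8 CPM in tags 1 to 8 of experiment 1. Tags 7 and 8 were high and differed from the other 6 but not from each other beyond counting error. In experiment 2 the same gene stood at 11.9, 9.81, 14.2, 11.9, 13.1, 16.5, 12.0 and 15.6 CPM, where only tag 2 stood apart from its neighbour in the order. The highest tag was 1.69 times the lowest in experiment 1 (95% interval 1.45 to 1.96) and 1.68 times in experiment 2 (1.44 to 1.96). Such a highest-to-lowest ratio cannot fall below 1, and its interval makes no allowance for picking the 2 tags by their values.

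Slc2a3, a high-affinity glucose transporter, was the member with the widest range. Its levels were 6.70, 6.69, 12.4, 11.4, 7.42, 5.99, 15.5 and 10.0 CPM in experiment 1, and 5.42, 9.88, 4.52, 11.5, 4.41, 4.86, 4.04 and 6.24 CPM in experiment 2. Tags 7, 3, 4 and 8 were the high ones in experiment 1, and tags 4 and 2 in experiment 2, where those 2 lay above the other 6. The highest-to-lowest ratios were 2.59 (2.15 to 3.13) and 2.85 (2.26 to 3.63). In experiment 1 it was counted in 18.5% of cells, and in experiment 2 in 13.9%; no cell class here lacks glycolysis, so no blank for free RNA could be set for such shares.

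Hk2, the inducible hexokinase, and Pfkp, the platelet-type phosphofructokinase, begin the enzyme series. Hk2 stood at 26.5, 28.4, 22.4, 25.1, 26.9, 27.7, 20.7 and 22.0 CPM in experiment 1 and at 28.5, 28.4, 30.4, 24.5, 32.3, 32.5, 18.6 and 25.1 CPM in experiment 2. Tag 7 was lowest in both, and in experiment 2 it lay below every other tag beyond counting error; the ratios were 1.37 (1.22 to 1.53) and 1.75 (1.56 to 1.96). Pfkp stood at 34.5, 37.9, 21.3, 24.0, 33.3, 41.0, 31.1 and 40.0 CPM in experiment 1. Tags 3 and 4 were the low ones. In experiment 2 it stood at 34.1, 17.1, 42.3, 35.9, 46.5, 42.3, 26.1 and 33.0 CPM, with tag 2 lowest and tag 7 next. Its ratios were 1.93 (1.75 to 2.13) and 2.71 (2.44 to 3.02), and the second fell to 1.78 without tag 2.

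Aldoa, the aldolase that splits the sugar into trioses, was the flattest member in experiment 1: 441, 452, 434, 433, 384, 409, 411 and 425 CPM, a ratio of 1.18 (1.14 to 1.21). In experiment 2 it stood at 559, 507, 506, 480, 512, 534, 380 and 469 CPM, with tag 7 below the other 7 and a ratio of 1.47 (1.43 to 1.51). Gapdh, the triose-phosphate dehydrogenase often used as a reference gene, stood at 2781, 2782, 2372, 2346, 2465, 2483, 2541 and 2547 CPM in experiment 1 and at 3329, 2656, 2785, 2484, 3034, 3282, 2430 and 2855 CPM in experiment 2. Tags 3 and 4 were low in experiment 1 and tags 7 and 4 in experiment 2. The Gapdh ratios were 1.19 (1.17 to 1.20) and 1.37 (1.36 to 1.38).

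Pgk1, the kinase of the first ATP-yielding step, split experiment 1 most plainly: 435, 427, 330, 330, 417, 417, 439 and 430 CPM. Tags 3 and 4 did not differ from each other and lay well below the other 6, which differed little. In experiment 2 it stood at 473, 363, 461, 374, 450, 488, 423 and 474 CPM, with tags 2 and 4 lowest. The ratios were 1.33 (1.29 to 1.37) and 1.34 (1.31 to 1.38).

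Eno1 encodes the enolase that forms phosphoenolpyruvate. Its levels in experiment 1 were 135, 138, 138, 132, 111, 111, 172 and 152 CPM, low in tags 5 and 6 and high in tags 7 and 8. In experiment 2 they were 229, 221, 198, 260, 209, 291, 132 and 249 CPM, where each of the 7 steps between neighbouring tags in the order exceeded counting error and tag 7 was lowest. The ratios were 1.56 (1.48 to 1.64) and 2.20 (2.11 to 2.29). The near-identical copy Eno1b was at 0.595 to 1.95 CPM over all tags, so reads that fit both genes make the exact Eno1 level uncertain.

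Pkm, pyruvate kinase, stood at 654, 651, 549, 560, 622, 634, 684 and 670 CPM in experiment 1 and at 704, 572, 691, 598, 691, 779, 632 and 766 CPM in experiment 2. Tags 3 and 4 were again lowest in the first and tags 2 and 4 in the second. Ldha, which makes lactate, followed another order: 1061, 1072, 888, 904, 900, 939, 783 and 854 CPM in experiment 1, with tags 7 and 8 lowest. In experiment 2 Ldha stood at 1165, 891, 1104, 877, 977, 995, 786 and 929 CPM, with tag 7 lowest and tag 1 highest. The Pkm ratios were 1.25 (1.22 to 1.27) and 1.36 (1.33 to 1.39), and those of Ldha 1.37 (1.34 to 1.39) and 1.48 (1.46 to 1.51).

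**Figure D1:**
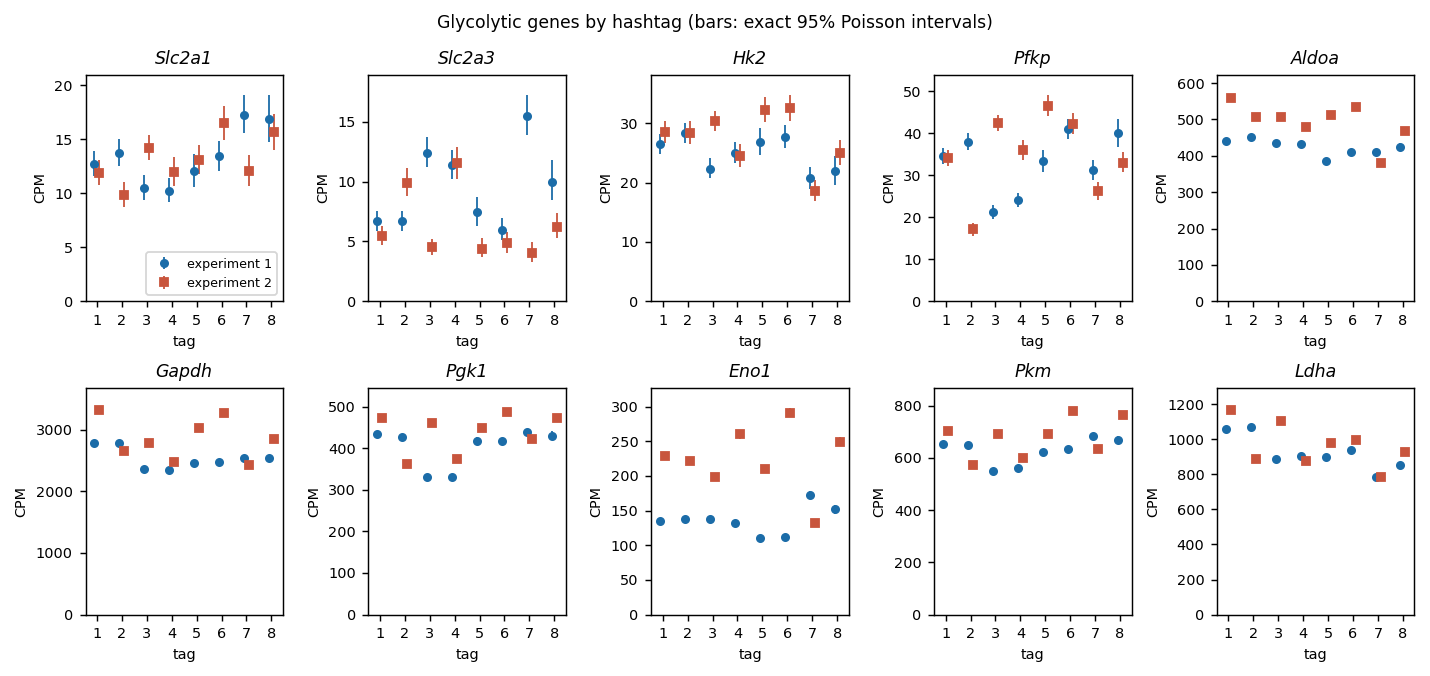
Levels of the 10 genes (y axis, CPM, linear from 0) in hashtags 1 to 8 (x axis) of experiment 1 (circles) and experiment 2 (squares), with exact 95% Poisson intervals as bars. Pgk1 of experiment 1 shows tags 3 and 4 at 330 CPM below the other 6 tags, and Eno1 of experiment 2 shows tag 7 at 132 CPM below the rest.

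The members thus did not share a single order over the tags. In experiment 1 the 2 lowest tags were 3 and 4 for 5 members (Slc2a1, Pfkp, Gapdh, Pgk1 and Pkm), 7 and 8 for Hk2 and Ldha, 5 and 6 for Aldoa and Eno1, and 2 and 6 for Slc2a3. In experiment 2 tag 7 was lowest for 6 members (Slc2a3, Hk2, Aldoa, Gapdh, Eno1 and Ldha) and tag 2 for the other 4 (Slc2a1, Pfkp, Pgk1 and Pkm). Tag 6 of experiment 2 was highest for 5 members.

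At a threshold of 1.5-fold between the highest and the lowest tag, 4 of 10 members passed in experiment 1 (Slc2a1, Slc2a3, Pfkp and Eno1) and 5 in experiment 2 (the same 4 and Hk2). Among all genes with at least 10 UMIs in every tag, 38.7% of 11104 and 48.6% of 11552 passed, so the members' shares lay near the background. Of the 6 members with a mean of at least 50 CPM, 1 passed in each experiment, Eno1, beside 14.8% of 2869 and 21.6% of 2643 genes at that level. The members' median ratio was 1.37 and 1.58, and that of all genes with at least 10 UMIs 1.38 and 1.48. Without tag 7 the count in experiment 2 was 3.

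Tag 7 of experiment 2 differed from the others in its cells too. Its summed granulocyte and monocyte marker level was 222 CPM, the lowest of a range up to 12769 CPM in tag 6. Its T-lineage marker level was high at 2067 CPM, where the tags ranged from 386 to 2259 CPM, but tag 4 was higher still. In experiment 1 the T-lineage markers ranged from 605 to 1433 CPM, with tag 4 highest, and the granulocyte and monocyte markers from 281 to 1600 CPM. Median depth per cell ran from 18058 to 29606 UMIs and from 19543 to 31961 UMIs over the tags. A tag's summed level cannot tell fewer cells of a type from less RNA per cell, so levels inside clusters of cells follow. Their share in the tag differences was not tested.

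Promoter sequences are shown for Pgk1, Pfkp and Eno1, whose levels inside clusters follow, and for Ldha. Counted on both strands, a window of Ldha holds the most motif matches. All 9 members with a window hold the core of the HIF binding motif, so it does not set these 4 apart. They are the 250 bases before a RefSeq start site in GRCm38.p6, printed 5′ to 3′ on the gene's strand, with capitals marking the letters ACGTG or GCGTG, or their reverse complements, and CACGTG, the E-box bound by Myc; an ACGTG inside a CACGTG is counted in both.
Pgk1, chrX:106186850-106187099, plus strand: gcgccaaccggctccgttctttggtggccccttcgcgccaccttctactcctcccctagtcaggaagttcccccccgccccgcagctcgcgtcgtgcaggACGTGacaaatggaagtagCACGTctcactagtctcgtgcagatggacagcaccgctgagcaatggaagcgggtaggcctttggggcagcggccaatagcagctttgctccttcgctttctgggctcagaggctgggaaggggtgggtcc
Pfkp, chr13:6648772-6649021, minus strand: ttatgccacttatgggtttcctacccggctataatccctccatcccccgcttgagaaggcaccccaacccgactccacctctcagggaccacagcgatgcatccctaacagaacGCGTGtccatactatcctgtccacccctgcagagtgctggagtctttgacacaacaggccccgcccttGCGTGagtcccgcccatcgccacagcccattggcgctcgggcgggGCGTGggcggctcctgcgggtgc
Eno1, chr4:150236947-150237196, plus strand: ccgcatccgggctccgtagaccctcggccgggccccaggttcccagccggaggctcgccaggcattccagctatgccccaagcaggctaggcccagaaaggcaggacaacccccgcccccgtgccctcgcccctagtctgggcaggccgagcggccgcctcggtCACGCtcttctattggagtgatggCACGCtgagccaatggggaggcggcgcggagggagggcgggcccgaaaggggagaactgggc
Ldha, chr7:46845554-46845803, plus strand: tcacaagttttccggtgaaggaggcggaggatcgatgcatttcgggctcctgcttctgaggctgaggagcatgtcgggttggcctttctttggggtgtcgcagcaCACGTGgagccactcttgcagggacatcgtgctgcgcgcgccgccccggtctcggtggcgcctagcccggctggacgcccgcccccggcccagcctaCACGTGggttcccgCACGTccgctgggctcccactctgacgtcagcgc

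The Pgk1 window holds 2 matches of ACGTG, the Pfkp window 3 of GCGTG, and the Eno1 window, from 1 of the gene's 3 start sites, 2 of GCGTG. The Ldha window, from 1 of the gene's 2 start sites, holds 5 matches of ACGTG and 2 of CACGTG, which overlap. CACGTG reads the same on both strands, so each one is counted as 2 of the 5, which are not separate sites. The other Ldha window holds 1 of GCGTG. Windows were found for 9 of the 10 members, and 1 window of Aldoa and 1 of Pkm held neither letter run. Counted by window, 13 of 15 (86.7%) held ACGTG or GCGTG on either strand, and so did 38.6% of all 32851 promoter windows of the same length. Some windows of Eno1 and of Aldoa overlap, so the 13 count some sites more than once. CACGTG stood in 1 of the 15 (6.67%) and in 6.02% of all windows. A match describes the letters in these windows and says nothing about binding in these cells.

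The cells of each experiment were clustered without the members and their pathway among the variable genes, which gave 12 and 17 clusters, of which 11 and 16 had at least 50 cells. In experiment 1 the low tags for Pgk1 and Pfkp coincided with clusters 5 and 6, both led by Pgam2, a muscle-type phosphoglycerate mutase. By its markers cluster 5 was T-lineage-like, and cluster 6 was left unnamed. Tags 3 and 4 gave 433 and 422 of the 859 cells of cluster 5, and 382 and 428 of the 812 cells of cluster 6. Pgk1 stood at 282 and 306 CPM in these clusters, against 406 to 448 CPM in the 4 clusters that hold at least 20 cells of every tag (clusters 1 to 4). Pfkp stood at 12.0 and 18.9 CPM there, against 24.8 to 50.8 CPM in clusters 1 to 4. Pfkl, the liver-type phosphofructokinase, was also low there, at 25.2 and 24.6 CPM, and Ldhb, the other lactate dehydrogenase, was high, at 43.0 and 35.0 CPM.

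Levels by tag were then read inside the 4 clusters of experiment 1 with cells of every tag. By their markers cluster 3 was dendritic-like and cluster 4 T-lineage-like, and clusters 1 and 2 were left unnamed. In cluster 1 (1821 cells), Pgk1 stood at 446, 429, 404, 414, 451, 428, 470 and 401 CPM in tags 1 to 8, with tags 3 and 4 inside the range of the others. They lay inside the range in cluster 3 too, at 430 and 434 CPM where the tags ran from 407 to 472 CPM. In cluster 2, however, tags 4 and 3 were again the 2 lowest for Pgk1, at 382 and 387 CPM against 404 to 464 CPM. In cluster 4, tag 4 was lowest at 346 CPM and tag 3 stood at 400 CPM among the other tags. Tags 3 and 4 were thus both lowest for Pgk1 in cluster 2 only, and tag 4 alone was lowest in cluster 4. In cluster 1 only tag 8, at 401 CPM, lay below them. Steps between neighbouring tags inside a cluster were not compared with counting error. The highest-to-lowest Pgk1 ratio ran from 1.16 to 1.26 over the 4 clusters, where all cells gave 1.33.

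Pfkp in cluster 1 stood at 31.5, 30.9, 25.8, 38.4, 33.2, 35.8, 30.8 and 29.1 CPM, with tag 3 lowest, as over all cells, and tag 4 highest. Tag 3 was lowest for Pfkp in cluster 4 as well, at 23.7 CPM, but highest in cluster 3, at 69.0 CPM; in cluster 2, tag 2 was lowest at 20.1 CPM. The order of the tags for Pfkp therefore differed from cluster to cluster. For Ldha, tags 7 and 8 were the 2 lowest in cluster 2 (757 and 805 CPM), cluster 3 (861 and 984 CPM) and cluster 4 (872 and 895 CPM), as over all cells. In cluster 1, tag 8 was lowest for Ldha at 849 CPM and tag 5 came next. Hk2 had tags 7 and 8 as its 2 lowest in no cluster, and Pkm had tags 3 and 4 in cluster 4 only.

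Members with at least 10 UMIs in the lowest tag were counted in each of these clusters. In cluster 1, 0 of 9 were at least 1.5-fold apart between tags, beside 39.0% of all genes counted the same way there. In cluster 2 it was 3 of 9 (Slc2a1, Pfkp and Eno1) beside 40.0%. In cluster 3 it was 4 of 10 (Slc2a1, Slc2a3, Hk2 and Pfkp) beside 48.7%, and in cluster 4 it was 2 of 9 (Slc2a3 and Pfkp) beside 45.5%. Only cluster 1 had no member past the threshold; Eno1 came nearest there at 1.498 and Pfkp next at 1.49. The Slc2a1 interval in cluster 2 (0.94 to 3.44) held 1. The smallest tag in these clusters had 34 to 59 cells.

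In experiment 2, clusters 4 and 6 were the ones led by Pgam2. By its markers cluster 6 was T-lineage-like, and cluster 4 was left unnamed. Tags 2 and 4 gave 580 and 177 of the 771 cells of cluster 4, and 132 and 510 of the 648 cells of cluster 6. Pfkp stood at 8.11 and 9.97 CPM and Pgk1 at 331 and 271 CPM, of which the Pfkp levels were the 2 lowest among 16 clusters. Pfkl stood at 27.7 and 28.7 CPM, and Ldhb at 61.2 and 105 CPM. Pgam2 itself ranged from 2.22 to 480 CPM over the tags, with tag 4 highest and tag 2 next at 318 CPM.

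Experiment 2 had 3 clusters with at least 20 cells of every tag. By their markers cluster 2 was T-lineage-like and cluster 9 dendritic-like, and cluster 3 was left unnamed. In cluster 2 (1079 cells) Eno1 stood at 160, 156, 122, 168, 140, 200, 98.6 and 141 CPM, with tag 7 lowest and tag 6 highest as over all cells, a ratio of 2.03. In cluster 3 it stood at 175, 177, 138, 108, 145, 167, 105 and 136 CPM, with tag 7 lowest again and a ratio of 1.68. In cluster 9 it stood at 282, 261, 231, 236, 259, 272, 250 and 233 CPM, with tag 3 lowest, tag 7 among the others and a ratio of 1.22. The low Eno1 level of tag 7 was thus seen in 2 of the 3 clusters. Gapdh was lowest in tag 7 in all 3, at 2526, 2137 and 2220 CPM in clusters 2, 3 and 9. The Gapdh ratios there were 1.28, 1.43 and 1.76. Ldha was lowest in tag 7 in clusters 2 and 3, at 946 and 756 CPM. In cluster 9, tag 8 was lowest for Ldha at 728 CPM and tag 7 came next at 777 CPM. Hk2 was lowest in tag 7 in cluster 2 only, at 19.8 CPM, and Slc2a3 in none of the 3, on few UMIs.

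Aldoa in cluster 2 stood at 519, 479, 485, 443, 507, 481, 445 and 494 CPM, a ratio of 1.17 where all cells gave 1.47, and in cluster 3 its ratio was 1.15. In cluster 9 it stood at 732, 717, 638, 590, 639, 691, 443 and 581 CPM, with tag 7 lowest as over all cells and a ratio of 1.65 (1.46 to 1.87). The spread between tags was therefore wider for Eno1 than for Aldoa in clusters 2 and 3 and narrower in cluster 9. At least 1.5-fold apart were 4 of 9 members in cluster 2 (Slc2a1, Hk2, Pfkp and Eno1) beside 44.7% of all genes there, 2 of 7 in cluster 3 (Pfkp and Eno1) beside 53.9%, and 6 of 8 in cluster 9 (Hk2, Pfkp, Aldoa, Gapdh, Pgk1 and Ldha) beside 74.4%. The Slc2a1 interval in cluster 2 (0.96 to 3.91) held 1. The smallest tag in these clusters had 23 to 32 cells.

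**Figure D2:**
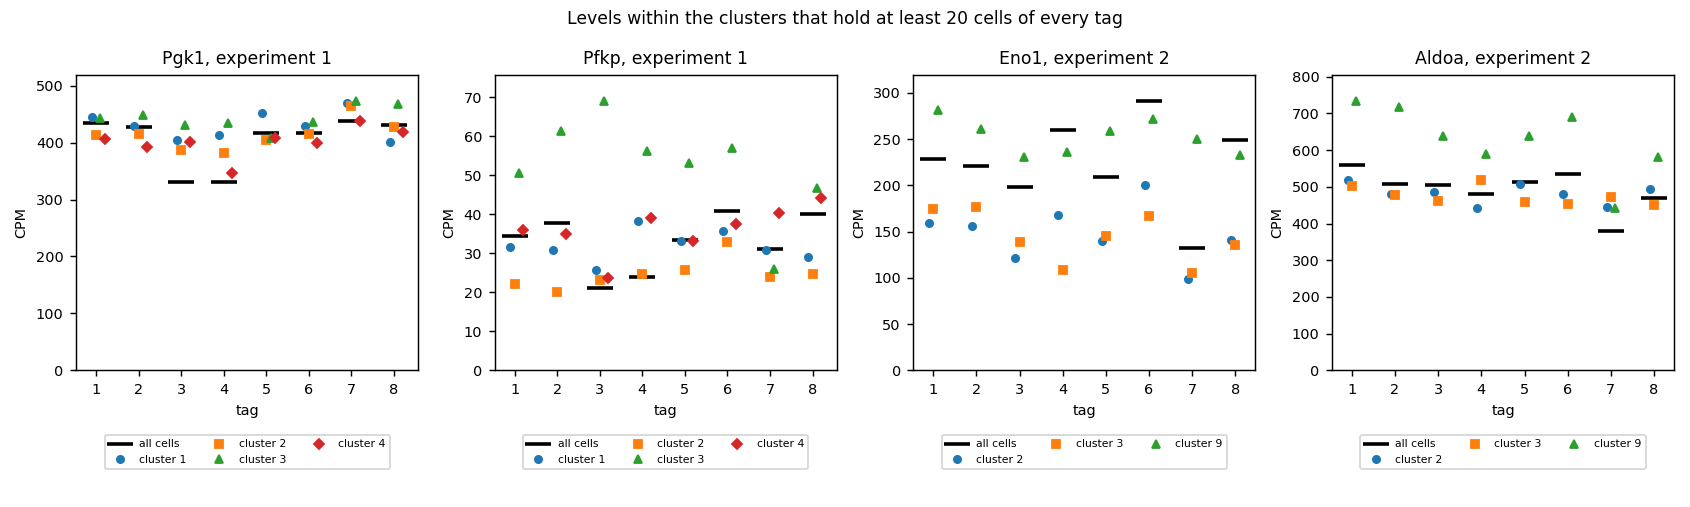
Levels (y axis, CPM, linear from 0) by tag (x axis) over all cells (bars) and within each cluster that holds at least 20 cells of every tag (symbols), for Pgk1 and Pfkp in experiment 1 and Eno1 and Aldoa in experiment 2. In cluster 1 of experiment 1, Pgk1 of tags 3 and 4 stands at 404 and 414 CPM although their level over all cells is 330 CPM, while in cluster 4 tag 4 stands lowest at 346 CPM. In experiment 2, tag 7 is lowest for Eno1 in clusters 2 and 3 and for Aldoa in cluster 9.

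Pathway genes outside the members were counted the same way, over all cells. Beside these counts, 38.7% and 48.6% of all genes with at least 10 UMIs in every tag passed. Of 12 other glycolytic enzymes, 11 had at least 10 UMIs in every tag, and 6 and 8 of them were at least 1.5-fold apart. Pgam2 was the widest in both experiments and Gpi1, the isomerase after hexokinase, the narrowest, at 1.09 and 1.18. Pfkl was lowest in tag 4 of both experiments, at 34.5 CPM against a highest 60.8 CPM in experiment 1 and at 38.2 CPM against 68.3 CPM in experiment 2. Ldhb was highest where Pgk1 was low: 31.2 and 30.3 CPM in tags 3 and 4 of experiment 1, where the other 6 tags lay from 7.12 to 12.0 CPM, and 59.5 and 44.2 CPM in tags 4 and 2 of experiment 2. Ldhb also stood at 30.9 CPM in tag 6 of experiment 2, which was not low for Pgk1.

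**Figure D3:**
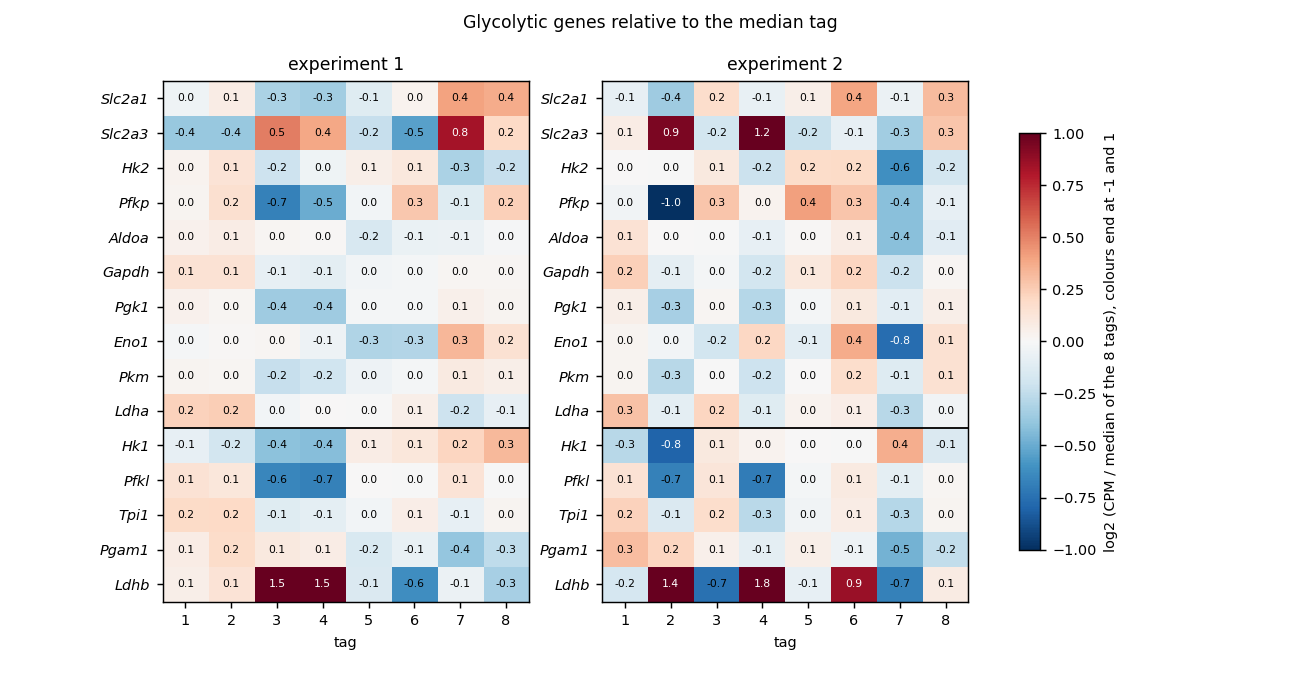
Log2 ratio of each tag's CPM to the median of the 8 tags (colour and printed value) for the 10 members and, under the line, 5 other glycolytic enzymes, in experiment 1 (left) and experiment 2 (right). Ldhb shows its highest values in tags 3 and 4 of experiment 1 and tags 2 and 4 of experiment 2, and colours end at -1 and 1.

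Outside the enzyme series the same shares of all genes, 38.7% and 48.6%, apply. Here 4 and 3 of 5 lactate and sugar transporters were at least 1.5-fold apart, with the widest Slc2a8 (4.13) and Slc2a6 (3.81) and the narrowest Bsg, the chaperone of lactate transporters (1.08 and 1.14). Regulators of glycolytic flux passed in 7 of 9 in both experiments, from Pfkfb3 (1.22) to Pdk2 (5.15) and from Pdk3 (1.36) to Arrdc4 (4.08). The widest genes of these 2 lists were at low levels, so their ratios rest on few UMIs. Slc2a8 ran from 0.86 to 3.56 CPM and Pdk2 from 0.34 to 1.76 CPM in experiment 1. Slc2a6 ran from 1.30 to 4.97 CPM and Arrdc4 from 0.93 to 3.81 CPM in experiment 2. Transcription factors and oxygen sensors passed in 4 of 10 and 5 of 11, with Mycn widest (4.95 and 13.7) and Egln2 narrowest (1.16 and 1.07). Hif1a, the oxygen-regulated subunit of HIF, ran from 41.1 CPM to 69.4 CPM in tag 4 of experiment 1 and from 31.4 CPM to 68.4 CPM in tag 4 of experiment 2. Both of those tags were low for Pgk1.

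Other hypoxia-induced genes passed in 4 of 12 in experiment 1 and 12 of 14 in experiment 2, beside 38.7% and 48.6% of all genes. In experiment 2 P4ha2, a collagen prolyl hydroxylase, was widest (6.21), at low levels of 0.81 to 5.01 CPM. Ndrg1 was widest in experiment 1 (3.29), and Higd1a narrowest in both (1.08 and 1.14). The pentose phosphate pathway, which branches off after the hexokinase step, passed in 1 and 3 of 7, with Pgls widest in experiment 1 (1.67) and G6pdx in experiment 2 (2.13). Tkt (1.18) and Rpe (1.31) were the narrowest. Genes of pyruvate entry and gluconeogenesis passed in 3 and 4 of 9, with Fbp1 widest (4.36 and 7.68) and Mpc2 (1.15) and Dlat (1.19) narrowest. The serine branch passed in 1 and 2 of 5, led by Psph (2.78 and 3.08), with Phgdh (1.40) and Psat1 (1.36) narrowest.

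The tag pattern of the members' mean log2 level was compared with 2505 other genes of at least 50 CPM in both experiments, over 8 tags each. The 10 most alike, by the lower of the 2 Pearson correlations, were Ostf1 (0.94), Slc25a4, an adenine nucleotide carrier of mitochondria (0.90), Tmem234 (0.88), Otulin (0.88), Bax, a cell-death effector (0.87), Dnajb11 (0.87), Sys1 (0.87), Ebp (0.87), Lmo2, a progenitor transcription cofactor (0.86), and Tpst2 (0.86). The tags of an experiment share a library. Each member's own correlation with that mean, which contains it, ran from -0.07 for Ldha to 0.92 for Pkm in experiment 1 and from 0.52 for Pgk1 to 0.87 for Eno1 in experiment 2, among the 6 members of at least 50 CPM.

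Levels were then set out by cluster. In experiment 1 cluster 11, granulocyte or monocyte-like by its markers (97 cells), was highest for 8 members, with Pfkp at 84.8 CPM, Aldoa at 663 CPM, Gapdh at 3355 CPM and Eno1 at 278 CPM. Slc2a3 was lowest in that cluster, at 3.92 CPM, and highest in the mast or basophil-like cluster 10, at 41.2 CPM. Slc2a1 was highest at 22.9 CPM in cluster 9, which is led by Klrk1 and Il2rb and was left unnamed, but cluster 11 followed at 22.7 CPM within counting error.

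In experiment 2 cluster 13 (165 cells, 106 of them in tag 4 and 37 in tag 3) was highest for 8 members. It is led by Gzmc, Cd8b1, Ifng and Trac and was left unnamed. Eno1 stood at 788 CPM there, with the granulocyte or monocyte-like cluster 10 next at 418 CPM; Ldha stood at 1932 CPM with cluster 7 next at 1253 CPM; and Pfkp stood at 125 CPM with cluster 9 next at 72.4 CPM. Aldoa stood at 774 CPM in cluster 13, with cluster 10 close behind at 766 CPM. Slc2a1 stood at 25.2 CPM there, with cluster 12 next at 20.4 CPM. Slc16a3, a lactate exporter, stood at 40.2 CPM in cluster 13. Hk2 was highest in cluster 10, at 53.2 CPM, and Slc2a3 in the mast or basophil-like cluster 14, at 27.1 CPM. The stromal-like cluster 11 was lowest for Aldoa (359 CPM), Gapdh (1720 CPM) and Pkm (383 CPM).

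Every member with at least 10 UMIs in its lowest cluster was at least 1.5-fold apart between clusters: 9 of 9 in experiment 1 and 7 of 7 in experiment 2. Of all genes with at least 10 UMIs in the lowest cluster, 88.0% of 6809 and 96.1% of 5642 were. The 6 members of at least 50 CPM were all past 1.5-fold in both experiments, beside 81.8% of 2894 and 93.9% of 2598 genes at that level. In experiment 1 the low end of Pfkp, Aldoa, Pgk1, Eno1 and Pkm was cluster 8, 200 cells with a median of 2894 UMIs; without it the Eno1 ratio went from 5.59 to 2.78 and that of Aldoa from 3.27 to 1.81.

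**Figure D4:**
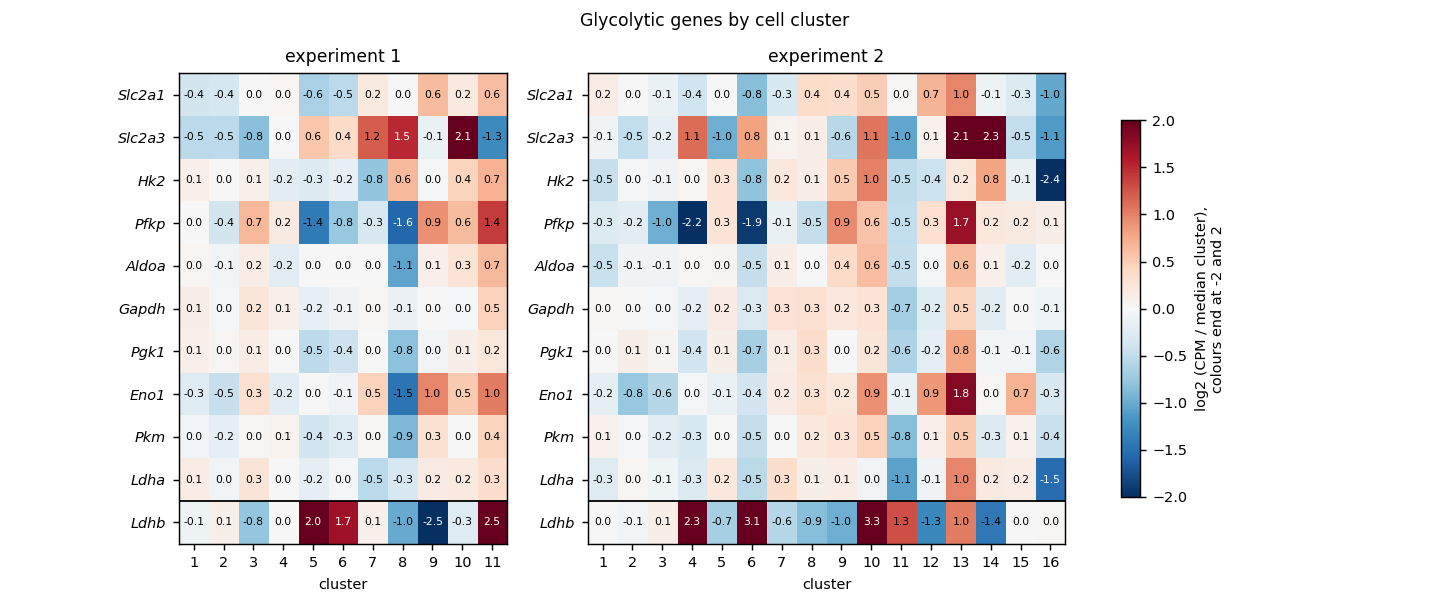
Log2 ratio of each cluster's CPM to the median cluster (colour and printed value) for the 10 members and Ldhb in experiment 1 (left) and experiment 2 (right), clusters of at least 50 cells. The granulocyte or monocyte-like cluster 11 of experiment 1 and cluster 13 of experiment 2 each hold the highest level of 8 members. The margin over the next cluster is small for Eno1 and Hk2 in experiment 1 and for Aldoa in experiment 2.

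Members were also compared between the quartiles of cells with the most and the fewest UMIs of S and G2/M phase genes, drawn within each tag after thinning every cell to 5000 UMIs (8602 and 8150 cells; 195 and 185 shallower cells were left out). A quartile is a range of cells, not a cell state. Mki67, a proliferation marker, was 12.2 and 16.8 times higher in the top quartile. Ldha went from 699 CPM in the bottom to 889 CPM in the top quartile in experiment 1 (ratio 1.27, 1.23 to 1.31) and from 695 to 907 CPM in experiment 2 (ratio 1.31, 1.27 to 1.35), and lay above 1 in 8 of 8 tags of both. The same was so of Gapdh (1.16 and 1.21) and Pkm (1.18 and 1.18). The intervals for Aldoa held 1 (0.97, interval 0.93 to 1.01, and 1.01, interval 0.97 to 1.05).

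Pfkp had the highest ratio of the 10, from 18.4 to 35.1 CPM in experiment 1 (1.91, 1.61 to 2.29) in 8 of 8 tags, but 1.19 (1.004 to 1.40) in experiment 2, where 6 of 8 tags lay above 1. Slc2a3 lay on the other side at 0.64 (0.49 to 0.83) and 0.75 (0.54 to 1.04). Past 1.5-fold in either direction were 2 of 10 members in experiment 1 (Pfkp higher and Slc2a3 lower) and 0 in experiment 2, beside 15.7% of 10952 and 22.0% of 10997 genes with at least 10 UMIs in each quartile. Both lie below 50 CPM. The 6 members of at least 50 CPM had ratios from 0.97 to 1.31, so 0 of them passed, beside 4.63% of 2892 and 6.82% of 2655 genes at that level that were higher and 2.28% and 4.60% that were lower. Ldhb moved against Ldha, at 0.53 (0.43 to 0.66) and 0.54 (0.46 to 0.63).

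**Figure D5:**
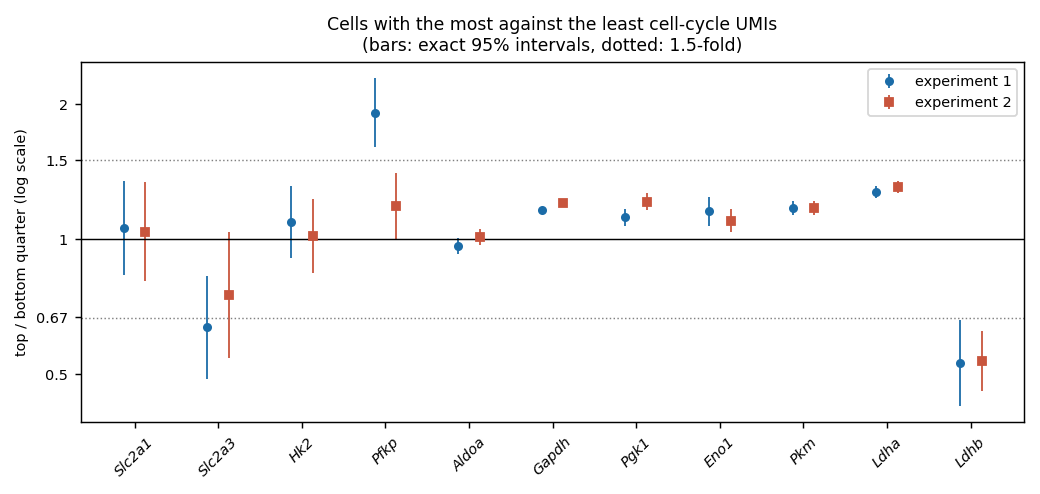
Ratio of the top to the bottom quartile of cells by S and G2/M UMIs (thinned to 5000 UMIs per cell) for the 10 members and Ldhb in both experiments. The y axis is a log scale, points are ratios over all tags, bars are exact 95% intervals, and dotted lines mark 1.5-fold. Ldha, Gapdh and Pkm lie above 1 and Ldhb below 1 in both experiments.

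Over all tagged cells, Eno1 was the member that differed most between experiments, with 135 CPM in experiment 1 and 223 CPM in experiment 2 (ratio 1.65, 1.62 to 1.67), and 7 of the 8 tags of experiment 2 lay above the highest tag of experiment 1. Slc2a3 went the other way, from 9.21 to 6.23 CPM, 0.68 (0.63 to 0.72), with 5 tags of experiment 2 below the lowest of experiment 1. Aldoa and Gapdh were 1.17 and 1.12 times higher, and the interval for Slc2a1 held 1 (1.01, 0.96 to 1.06). Past 1.5-fold, 1 member was higher and 0 were lower. Among all genes of at least 50 CPM, 2.13% of 2772 were higher and 4.47% lower, and among those with at least 10 UMIs in each experiment 12.8% of 14693 were higher and 9.49% lower.

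Around the members, the lactate transporters Slc16a1 and Slc16a3 went opposite ways between experiments (ratios 0.60 and 1.73), and Pfkfb3, which makes an activator of phosphofructokinase, was lower (0.53) in 8 of 8 tags than the lowest of experiment 1. Myc (0.54) and Mycn (0.48) were lower, and Ldhb (1.54), Eno3 (1.89) and Pgam2 (1.61) higher. Culture lasted 4 to 5 days in experiment 1 and 4 to 8 days in experiment 2 by the labels, so culture time, library and the mix of cells cannot be told apart.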

How the data were processed

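Single-cell mRNA and hashtag libraries were made with 10x Chromium version 3, per the labels' protocols. The deposited matrices hold UMI counts per gene and cell, and the deposited tag tables hold counts per hashtag and cell; per the submitters' processing notes, Cell Ranger 3.0.0 was used, with the builds mm10 and GRCm38 named. Barcodes below 500 genes or with 10% or more mitochondrial UMIs were dropped, and a tag was called where the top of 8 tags had at least 50 counts and 3 times the second, so barcodes with 2 similar tags got no call; no doublet caller was run. UMIs were summed per tag and divided by the tag's total (CPM). Cells were clustered with scanpy 1.11.5 (2000 variable genes without the members and pathway lists, 30 components, 15 neighbours, Leiden 0.5), and clusters were named only where at least 3 fixed markers led them. Depth was 14502385 to 42684236 UMIs per tag. Ratios have exact 95% intervals for counting error; with 1 library per experiment and no condition per tag, no test was made. Named were the 10 members, the widest and narrowest gene of each pathway list, and the 10 genes most alike; Pfkl, Ldhb, Hif1a, Slc16a1, Slc16a3, Pfkfb3, Myc, Eno3, Hk1, Hk3 and Mki67 were singled out after their values were seen. Tags were also compared inside each cluster with at least 20 cells of every tag, a choice made after seeing the data. The members, lists and tests were chosen with earlier results of these data known. The ratio script was tested on simulated data. Alternatives covered tag calling (HTODemux in Seurat 5.3.0), cell filters, scaling (edgeR 4.0.16 TMM, DESeq2 1.42.0 size factors), thinning, clustering and leaving out each tag. Promoter windows came from RefSeq.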

Additional observations from a re-analysis of the deposited data

Results flagged for a closer look

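The 8 tag values of an experiment were searched for the members and for the widest and narrowest gene of each pathway list. Those pathway genes had been picked by their range over these same tags. A tag was flagged where its gap to its nearest neighbour took more of the gene's whole range than Dixon's 95% critical value for 8 values allows. None of the 20 sets of the 10 members was flagged, and the largest gap of a member was 0.495. Of 67 sets looked at, 2 were flagged. The sources used here do not tell which tags, if any, are replicates of the same group. Bsg, the chaperone of lactate transporters, stood at 298 CPM in tag 7 of experiment 2, where the next tag had 320 CPM and the highest 340 CPM. Psat1, an enzyme of serine synthesis, stood at 67.6 CPM in tag 6 of experiment 2, where the next tag had 81.1 CPM and the highest 91.7 CPM. Chance alone flags about 5% of sets that were not picked by their range, so that share does not apply directly to the pathway genes.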

How the results depend on the processing

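Of the members' ratios, 4 crossed 1 under some alternative, and the intervals of 3 of these held 1 to begin with. The experiment ratio of Slc2a1, 1.01, was 0.955 after thinning to 5000 UMIs and 0.963 by the median over tags, and lay below 1 under the stricter cell filter and on leaving out 5 of the 16 tags. In the cell-cycle comparison Aldoa of experiment 1 went from 0.967 to 1.05 with S-phase genes alone and to 1.02 on unthinned UMIs, Slc2a1 of experiment 2 from 1.04 to 0.986 on unthinned UMIs, and Pfkp of experiment 2 from 1.19 to 0.987 with S-phase genes alone. Slc2a3 of experiment 2 went from 0.753 to 0.999 on unthinned UMIs. The count of members at least 1.5-fold apart between tags, 4 and 5, was 1 and 3 at a 2-fold threshold, and leaving out each tag gave 3 to 4 in experiment 1 and 3 to 5 in experiment 2, the lowest without tag 7 in both. In the largest cluster with cells of every tag, an alternative chosen after seeing the data, it was 0 in experiment 1 and 4 in experiment 2. The cell-cycle count in experiment 1 went from 1 higher to 0 with S-phase genes alone, and from 1 lower to 0 on unthinned UMIs; in experiment 2 the lower count went from 0 to 1 with S-phase genes alone. The count of members lower in experiment 2 went from 0 to 1 with every deposited barcode and with the median over tags, and leaving out each tag gave 0 to 1, since Slc2a3 lies near the threshold. Cluster ratios moved most: with clusters of at least 500 cells, also chosen after seeing the data, Eno1 went from 5.59 to 1.88 in experiment 1 and from 6.00 to 2.08 in experiment 2, and Ldha from 5.62 to 1.84 in experiment 2; at a finer Leiden resolution Ldha went from 1.85 to 3.38 in experiment 1 and Pfkp from 15.4 to 26.5 in experiment 2, where Eno1 went from 6.00 to 9.39 with 3000 variable genes. The causes were not tested. The low UMI counts of Slc2a1, Slc2a3, Hk2 and Pfkp limit their values in small clusters. No paired analysis was possible because each experiment has 1 library and no tag is tied to a condition.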

Other observations

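Eno3, the muscle-type enolase, was concentrated in cluster 16 of experiment 2 (65 cells, led by Ccl22 and Ccr7), at 391 CPM, with cluster 13 next at 94.2 CPM. Ldha was lowest in cluster 16, at 344 CPM. Hk2 was lowest there too, at 5.00 CPM, but that value rests on 4 UMIs, below the minimum of 10 used for the counts. Hk3, a hexokinase of myeloid cells, stood at 72.5 CPM in the granulocyte or monocyte-like cluster of experiment 1 and 67.8 CPM in that of experiment 2, and Hk1 was highest in the mast or basophil-like clusters, at 129 and 92.8 CPM.

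The kept cells without a tag call, 535 and 1879, had a median of 43493 and 29199 UMIs. All 10 members lay inside the range of the 8 tags there in both experiments; Gapdh, for example, stood at 2559 and 2683 CPM.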
